A study of Mus musculus with 6 samples.

Results

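The interferon and antigen presentation genes were a set of 35 mouse genes taken by their exact symbol in the array annotation. They comprised 6 transcription factors of the interferon response (Irf1, Irf5, Irf7, Irf8, Irf9 and Stat2), 17 antiviral effectors (Ifit1, Ifit2, Ifit3, Isg15, Mx1, Mx2, Oas2, Oas3, Oasl2, Rsad2, Ifi35, Ifi44, Rtp4, Bst2, Gbp2, Gbp3 and Xaf1), 4 RNA sensors and their regulators (Ddx58, Ifih1, Trim25 and Usp18), 6 genes of antigen processing for MHC class I (Psmb8, Psmb9, Tap1, Tap2, Tapbp and B2m) and 2 genes of MHC class II (Ciita and Cd74). Of the 35 genes, 33 were measured by a probe set with a single gene symbol, among 18193 genes on the array. Isg15 was not counted among the 33 because its probe set carries a further symbol (Gm9706), and Ifi44 was not listed in the annotation used here.

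Uterine RNA of 4-week-old female mice was hybridised to 6 Affymetrix arrays, 3 from control and 3 from mutant mice. The mutant mice carried 1 Pgr cre allele and 1 Ctnnb1 f(ex3) allele, so that Cre made wherever the progesterone receptor gene is active removes exon 3 of Ctnnb1 and leaves a stabilised β-catenin. The labels call the controls wild type, whereas the methods of the study describe them as mice with either the Cre or the floxed allele alone. The methods also state that uterine RNA of 3 mice was pooled for each genotype, so that whether each array stands for a separate animal is not settled and the p-values given here measure the spread between arrays, which may be technical. The comparison asked which of these genes differed in the uterus with activated β-catenin.

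Interferons are secreted proteins that bind cell surface receptors and act through Janus kinases, which phosphorylate STAT proteins. The type I pathway forms a complex with STAT2 and IRF9 that binds the interferon-stimulated response element (ISRE), while type II interferon acts at the gamma-activated site (GAS), and the induced proteins block viral replication or load peptides onto MHC molecules. In the uterus this response is best known from infection and from early pregnancy, and MHC class II genes are marks of antigen-presenting leukocytes.

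Of the 33 measured genes, 5 differed between mutant and control uteri. Usp18 (2.99-fold), Rsad2 (2.27-fold) and Irf5 (1.23-fold) were increased, and Bst2 and Gbp3 fell by 0.66 and 0.52 on the log2 scale. No gene of MHC class I processing or MHC class II passed the test. A call here is an adjusted p under 0.05 in limma over all 18193 genes. The 5 calls were 15.2% of the measured genes, against 12.0% of all genes. Higher calls made up 5.61% of all genes and lower calls 6.36%, the background against which the 3 higher and 2 lower calls are to be read. A further 6 genes (Ifit2, Irf1, Irf9, Ddx58, Ifih1 and Trim25) had an unadjusted p under 0.05 and did not pass, for 11 of 33 in all against 26.5% of all genes. The median log2 fold change of the 33 genes was 0.03 and that of all genes was -0.01, with 18 of the 33 differences above 0 and 15 below.

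**Figure D1:**
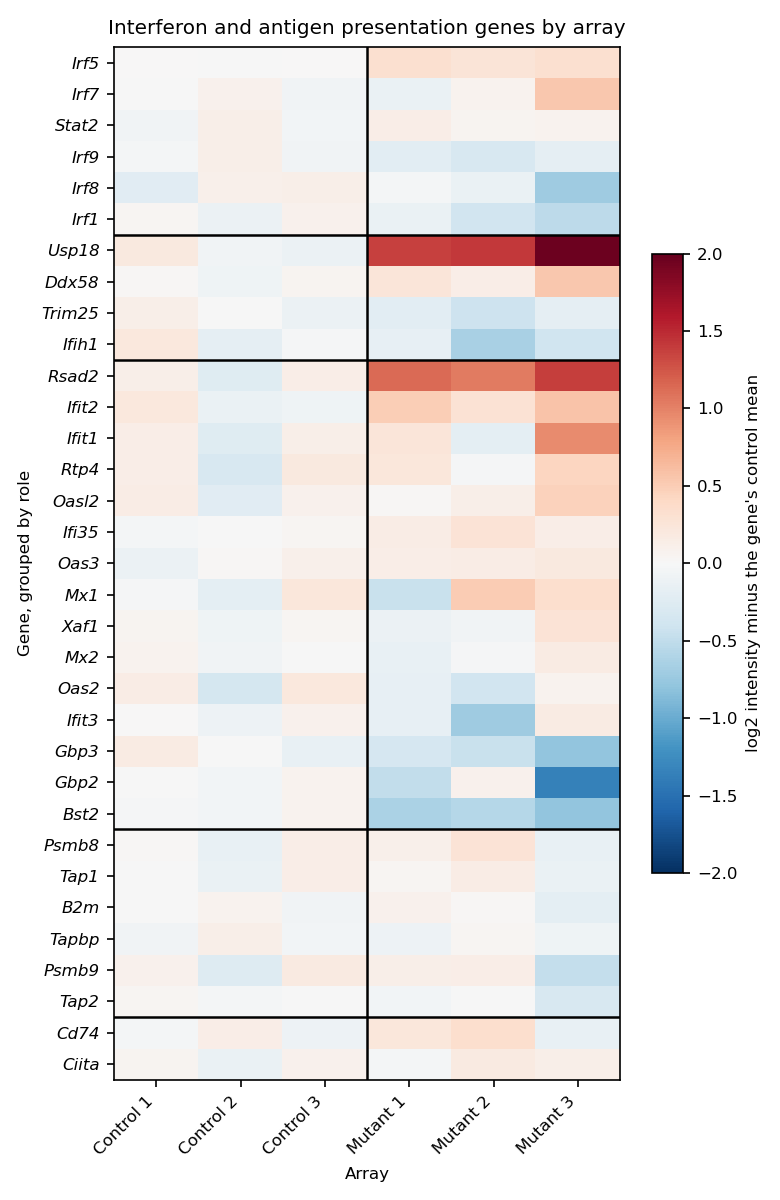
Heat map of the 33 measured genes (rows, grouped by role) in the 3 control and 3 mutant arrays (columns). Colour gives log2 intensity minus the mean of the gene's 3 control arrays, from -2 to 2. Usp18 and Rsad2 stand out as higher on every mutant array, and Bst2 and Gbp3 as lower. Some other rows, such as Ifit1 and Gbp2, change sign between mutant arrays. Because the control mean is subtracted, every row has both signs among the control arrays.

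The promoters were searched for the core letters of the ISRE. RefSeq promoter windows (GRCm38.p6, 250 bases before to 50 after a start site) were held for 27 of the 35 genes, including 4 of the 5 called genes. The bases before the start of Rsad2 (chr12:26456453-26456702, minus strand), Bst2 (chr8:71537473-71537722, minus strand), Gbp3 (chr3:142559794-142560043, plus strand, the upstream of its pair of starts) and Irf5 (chr6:29526375-29526624, plus strand) are given 5′ to 3′ along the gene, with letters that match the ISRE core GAAANNGAA on either strand in capitals. N stands for any base, and a match on the opposite strand reads TTCNNTTTC.
Rsad2 promoter: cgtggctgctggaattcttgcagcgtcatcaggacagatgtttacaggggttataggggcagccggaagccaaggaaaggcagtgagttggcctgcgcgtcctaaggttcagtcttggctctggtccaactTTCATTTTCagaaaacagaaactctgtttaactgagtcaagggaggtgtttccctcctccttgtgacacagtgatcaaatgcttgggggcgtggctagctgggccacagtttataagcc
Bst2 promoter: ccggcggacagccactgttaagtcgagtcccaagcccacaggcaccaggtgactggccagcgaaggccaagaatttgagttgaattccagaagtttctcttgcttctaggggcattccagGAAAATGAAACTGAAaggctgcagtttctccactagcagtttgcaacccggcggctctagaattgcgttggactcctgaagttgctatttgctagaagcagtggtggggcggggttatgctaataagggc
Gbp3 promoter: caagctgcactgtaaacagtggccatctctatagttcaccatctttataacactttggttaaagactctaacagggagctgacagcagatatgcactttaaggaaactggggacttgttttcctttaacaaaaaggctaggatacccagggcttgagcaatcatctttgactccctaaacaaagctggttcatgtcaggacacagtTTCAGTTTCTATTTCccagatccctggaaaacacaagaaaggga
Irf5 promoter: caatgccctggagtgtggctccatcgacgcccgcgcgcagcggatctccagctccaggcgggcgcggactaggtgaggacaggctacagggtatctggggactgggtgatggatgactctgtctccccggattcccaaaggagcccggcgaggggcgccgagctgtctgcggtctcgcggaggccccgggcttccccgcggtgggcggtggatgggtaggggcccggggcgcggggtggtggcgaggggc

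Rsad2 had 1 match, whose first base lay at -119 from the start. Bst2 had a pair of overlapping matches at -130 and -124, and Gbp3 had an overlapping pair at -44 and -38, much closer to its start. Irf5 had none in its window. Core matches were thus found in Rsad2, which rose, and in Bst2 and Gbp3, which fell. Usp18, with the largest rise, had no window and was not searched. For comparison, 25-base stretches around a match are given for antiviral effectors that did not pass the test, namely Ifit1 at -84, Ifit3 at -121, Oas3 at -69 and Gbp2 at -58.
Ifit1 site: gtctcagtTTCAGTTTCtcactgct
Ifit3 site: aagtctgtTTCAGTTTCtactttcc
Oas3 site: gagaaaacGAAAGTGAAgggaggtg
Gbp2 site: cttttagtTTCACTTTCactgtctt

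Across the set, 14 of the 27 genes with a window (51.9%) held at least 1 ISRE core, against 9.76% of the 27025 genes in the RefSeq table. The match was present in 1 of 2 genes that rose, in both that fell, in 9 of 21 that were not called, and in Isg15 and Ifi44, which had no probe set of a single symbol. The GAS letters TTCNNNGAA, which read the same on both strands, were held by 6 of the 27 genes (22.2%), against 9.55% of all genes. These 6 were Bst2, Ifi35, Ifit2, Irf1, Irf8 and Psmb8, and in Bst2 a GAS match overlapped an ISRE core match. A match is a description of the letters and does not show binding.

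The largest difference was that of Usp18, a protease that removes ISG15 from proteins and dampens signalling from the type I interferon receptor. Its log2 intensity was 4.99, 4.72 and 4.67 in control arrays 1 to 3 and 6.16, 6.20 and 6.75 in mutant arrays 1 to 3. All mutant arrays lay well above all control arrays, with mutant 3 the highest. The log2 fold change was 1.58 (SE 0.17, n = 3 arrays per group, limma adjusted p = 0.00187), with a 95% confidence interval of 1.18 to 1.98. In whole tissue, a change in the number of cells that express a gene and a change in RNA per cell cannot be told apart, and this holds for every value here.

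Rsad2 encodes viperin, an interferon-induced enzyme that makes a chain-terminating nucleotide. The control arrays read 7.03, 6.68 and 7.05 and the mutant arrays 8.06, 7.95 and 8.31. The groups did not overlap, and control 2 was the lowest array while mutant 3 was the highest. The log2 fold change was 1.18 (SE 0.14, limma adjusted p = 0.00237). Its other probe sets differed in the same direction, by 0.93 and 1.25, and all 3 passed when every probe set on the array was tested (adjusted p = 0.00182, 0.0162 and 0.000609).

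Irf5, a transcription factor that acts downstream of Toll-like receptors, gave 3.21, 3.20 and 3.21 in control arrays and 3.53, 3.46 and 3.52 in mutant arrays. The groups were separate, although every reading lay below an intensity of 16, where signal is dim. The log2 fold change was 0.30 (SE 0.07, adjusted p = 0.0374). When every probe set on the array was tested, this probe set did not pass (limma adjusted p = 0.0586). The other Irf5 probe set differed by -0.09 (adjusted p = 0.749 over all probe sets). The call was lost when any single array was left out (adjusted p from 0.0758 to 0.125).

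Bst2 encodes tetherin, a membrane protein that holds budding virions at the cell surface. Control arrays read 8.25, 8.23 and 8.34, and mutant arrays 7.64, 7.70 and 7.49. Every mutant array was lower than every control array, and the gap between groups was wider than the range within either. The log2 fold change was -0.66 (SE 0.09, limma adjusted p = 0.00432, 95% confidence interval -0.87 to -0.46). Bst2 and Rsad2, both antiviral effectors with ISRE core matches, thus differed in opposite directions in the same mutant arrays.

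Gbp3, an interferon-inducible guanylate-binding protein, read 7.76, 7.59 and 7.45 in control arrays and 7.26, 7.15 and 6.82 in mutant arrays. The groups did not overlap, and the highest mutant array came close to the lowest control array. The log2 fold change was -0.52 (SE 0.14, adjusted p = 0.0472). When every probe set on the array was tested, Gbp3 did not pass (limma adjusted p = 0.0554). The call was kept in 1 of the 6 fits that left out an array, the fit without mutant 1 (adjusted p = 0.0402), and the adjusted p rose to between 0.062 and 0.159 in the others.

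Gbp2, of the same family, had a difference of similar size that did not pass. It read 7.91, 7.86 and 7.99 in control arrays and 7.43, 8.01 and 6.56 in mutant arrays. Mutant 2 was the highest of the 6 arrays and mutant 3 the lowest, so that the groups overlapped. The log2 fold change was -0.59 (SE 0.31, adjusted p = 0.292), and its range was -0.93 to -0.20 as each array was left out. A further Gbp2 probe set had the same order of mutant arrays and a difference of -0.54. Other measured Gbp genes differed both ways, by 0.46 in Gbp6, -0.21 in Gbp7 and 0.33 in the dim Gbp8, and none was called. Guanylate-binding proteins, like the Ifit and Oas genes, are close paralogs, and cross-hybridisation between them was not tested.

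**Figure D2:**
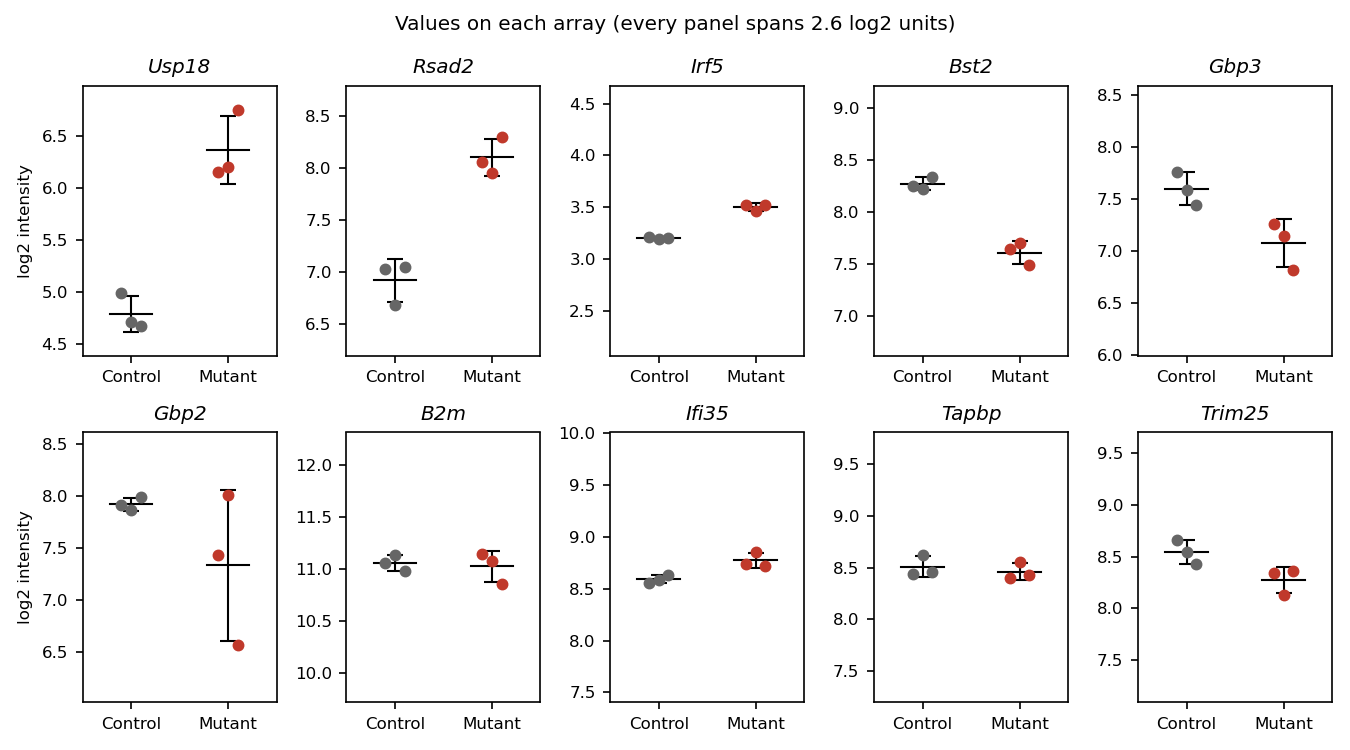
Log2 intensity of the 5 called genes, Gbp2 and the 4 genes named for their signal (B2m, Ifi35, Tapbp and Trim25) in each control and mutant array, 1 panel per gene with its own vertical axis. Points are arrays and bars give the mean with SD (n = 3). Usp18 and Rsad2 separate fully between groups, whereas the 3 mutant arrays of Gbp2 spread from 6.56 to 8.01.

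Of the other antiviral effectors read by a probe set of their own, none passed the test. Ifit2, which binds viral RNA and restrains translation, came closest, at 0.45 on the log2 scale (SE 0.12, adjusted p = 0.0532) and all mutant arrays, at 6.02 to 6.29, above the control arrays, at 5.59 to 5.94. Its relatives Ifit1 and Ifit3 differed by 0.33 (adjusted p = 0.50) and -0.24 (adjusted p = 0.518), and both overlapped between groups. In Ifit1 the mutant arrays alone spanned 4.95 to 6.10.

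The oligoadenylate synthetase genes Oas2, Oas3 and Oasl2, whose products sense double-stranded RNA or resemble those that do, differed by -0.16, 0.16 and 0.20. Oas3 was dim and its mutant arrays lay above its control arrays by a narrow margin (2.19 to 2.26 against 1.94 to 2.16). The GTPases Mx1 and Mx2, which trap viral nucleocapsids, were also below an intensity of 16 and differed by 0.13 and 0.00. Rtp4, a chaperone for receptors, differed by 0.21 and Xaf1, a partner of an apoptosis inhibitor, by 0.03. None of these 7 genes had an adjusted p under 0.29.

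The probe set annotated to both Isg15, a ubiquitin-like modifier that Usp18 removes from proteins, and Gm9706 read 6.24, 5.82 and 6.18 in control arrays and 6.60, 6.68 and 6.87 in mutant arrays. Every mutant array was above every control array, with control 2 the lowest and mutant 3 the highest. Its log2 fold change was 0.64 (SE 0.13, limma adjusted p = 0.0237 over all probe sets), and the signal cannot be assigned to either symbol alone.

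Ifi35, an interferon-induced leucine zipper protein, read 8.55, 8.58 and 8.63 in control arrays and 8.74, 8.86 and 8.72 in mutant arrays. The groups did not overlap, but the gap was small and the log2 fold change of 0.18 did not pass (SE 0.08, adjusted p = 0.193). Both of its other probe sets also had every mutant array above every control array, with differences of 0.25 and 0.23.

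Among the transcription factors, 1 of 6 passed, the dim Irf5 described above. Irf1, which drives MHC class I and interferon gamma responses, was lower on all mutant arrays (7.10 to 7.49) than on the control arrays (7.50 to 7.71), with a log2 fold change of -0.34 (adjusted p = 0.109). Irf9, the DNA-binding subunit of the type I complex, was also lower on every mutant array (-0.24, adjusted p = 0.133), and its partner Stat2 differed by 0.09 at intensities below 16. Irf7, the amplifier of type I interferon production, and Irf8, a factor of myeloid and dendritic cells, differed by 0.16 and -0.30 with overlapping groups. A further Irf8 probe set differed by -0.01 (limma adjusted p = 0.981 over all probe sets). The factors therefore had differences of both signs, 3 above 0 and 3 below.

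Of the 4 RNA sensors and regulators Usp18 alone was called, and neither sensor passed. Ddx58, which encodes RIG-I, was 0.30 higher in the mutants on the log2 scale (adjusted p = 0.146), and its groups did not overlap. Ifih1, which encodes the sensor MDA5, had the opposite sign at -0.40 (adjusted p = 0.135). Trim25, the ubiquitin ligase that activates RIG-I, read 8.66, 8.54 and 8.43 in control arrays and 8.34, 8.13 and 8.36 in mutant arrays. Mutant arrays were lower throughout, and its log2 fold change was -0.27 (SE 0.10, adjusted p = 0.137).

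None of the 6 MHC class I processing genes of the set passed the test, and their log2 fold changes lay between -0.13 and 0.08. B2m, the invariant light chain of class I molecules, read 11.06, 11.14 and 10.99 in control arrays and 11.14, 11.08 and 10.86 in mutant arrays. The values of the groups interleaved, and the log2 fold change was -0.03 (95% confidence interval -0.26 to 0.20). Tapbp, which encodes tapasin and bridges class I molecules to the peptide transporter, read 8.44, 8.62 and 8.46 against 8.40, 8.55 and 8.43, a difference of -0.05. The immunoproteasome subunits Psmb8 and Psmb9 differed by 0.08 and -0.08, and the transporter subunits Tap1 and Tap2 by 0.02 and -0.13. The 95% confidence intervals of the 6 genes lay between -0.52 and 0.37, so that differences within those bounds were not resolved by 3 arrays per group.

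Ciita, the master regulator of MHC class II transcription, was dim and differed by 0.09. Cd74, the invariant chain that guides class II molecules, read 6.56 to 6.80 in control arrays and 6.51 to 6.99 in mutant arrays, and its difference was 0.14 (adjusted p = 0.601).

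**Figure D3:**
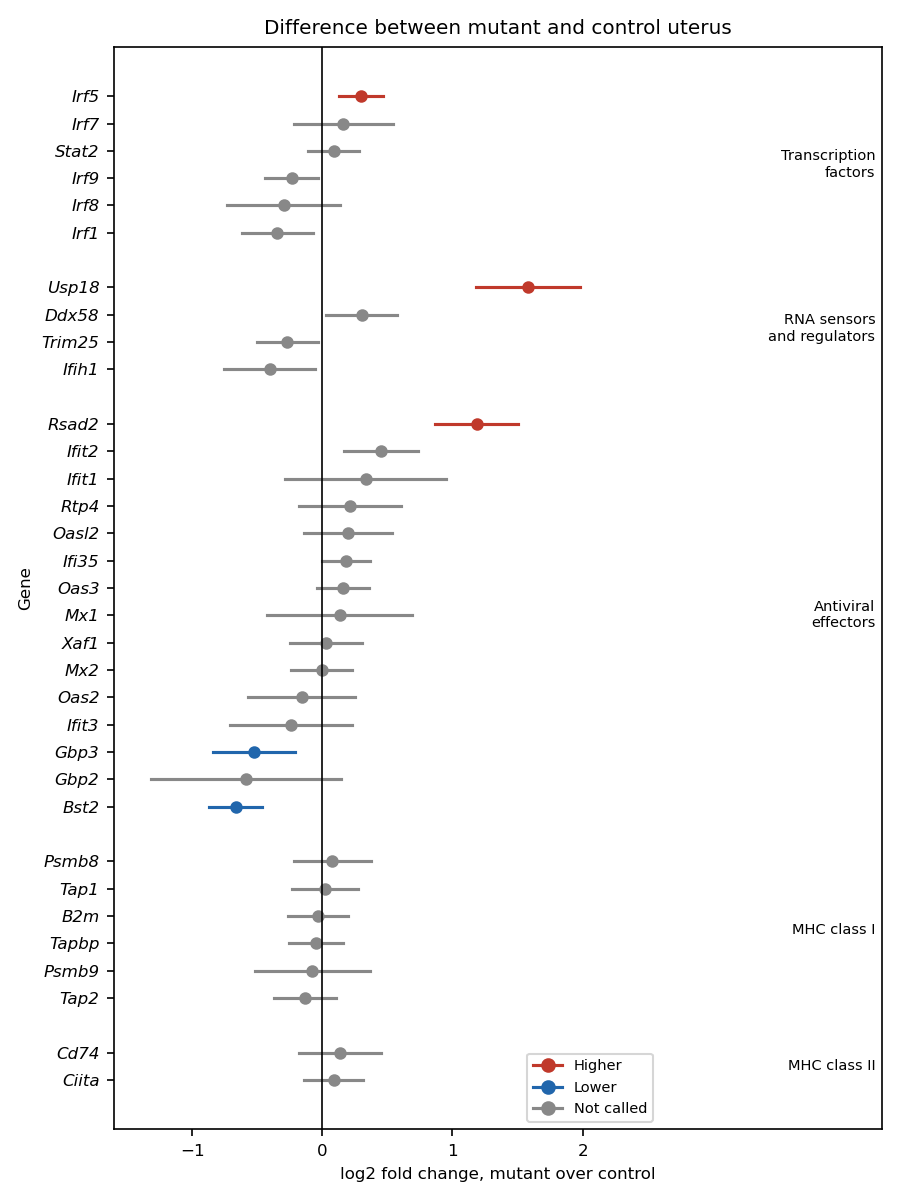
Log2 fold change (mutant over control) of the 33 measured genes, grouped by role, with points for the estimate and bars for the 95% confidence interval of the limma fit. Red marks the 3 higher calls, blue the 2 lower calls and grey the 28 genes not called. The MHC class I genes lie between -0.13 and 0.08.

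Groups did not overlap for 12 of the 33 genes, 7 with the mutant arrays above and 5 with them below. Over all genes these shares were 14.9% and 17.4%. The spread between mutant arrays was wider in this set than on the array at large. The median SD of the 33 genes was 0.209 in mutant arrays, against 0.120 over all genes, whereas in control arrays it was 0.113 against 0.112. This spread had an order that was noticed after the values were seen. Over the 33 genes, mutant 3 was the highest mutant array for 15 (45.5%, against 31.6% of all genes). It was the lowest for 12 (36.4%, against 32.2%). By role, it was the highest for 10 of 15 antiviral effectors (and the lowest for 4) and 3 of 4 RNA sensors and regulators. It was the lowest for 5 of 6 MHC class I genes. Of the 6 transcription factors it was the highest for 2 and the lowest for 2. Control 2 was the lowest control array for 21 of the 33 genes (63.6%, against 38.0% of all genes), including 12 of 15 antiviral effectors.

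Control 2 also stood apart in cell cycle markers, whose mean log2 intensity was 4.28 there and 6.07 to 6.55 in the other 5 arrays. Without control 2, Usp18, Rsad2 and Bst2 remained called, while Irf5 (adjusted p = 0.0923) and Gbp3 (adjusted p = 0.106) did not. Ctnnb1 itself, whose exon 3 is the target of Cre, read 11.51 to 11.54 in control arrays and 11.72 to 11.93 in mutant arrays (log2 fold change 0.33, adjusted p = 0.0498). An array of this kind reads the end of the transcript and does not show whether exon 3 was lost. Markers of uterine epithelium, stroma and smooth muscle were all present, with mean log2 intensities over each list of 7.62 to 9.70.

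Upstream of these genes, 24 of 34 listed interferon ligands, receptors and signal transducers were measured and 1 was called (4.17%, against 12.0% of all genes). Jak2, the kinase of the interferon gamma receptor and of many cytokine receptors, read 9.13, 9.06 and 9.10 in control arrays and 8.34, 8.17 and 8.39 in mutant arrays. The groups were far apart relative to their spread, with a log2 fold change of -0.80 (SE 0.09, limma adjusted p = 0.00188). The receptor genes Ifnar1, Ifnar2, Ifngr1 and Ifngr2 differed by -0.02, -0.02, 0.04 and -0.04. Ifnb1 and Ifng, which encode interferons, had mean log2 intensities of 2.20 and 1.89 in control arrays and 2.37 and 1.87 in mutant arrays, all dim.

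Of 104 other interferon-stimulated genes listed, 84 were measured, 4 were higher, 6 were lower and 74 were not called. The share called was 11.9%, near that of all genes, and the median log2 fold change was 0.00. Genes that fell included the inflammatory caspases Casp4 (-1.0, adjusted p = 0.00261) and Casp1 (-1.02, adjusted p = 0.00415), the chemokine Cxcl10 (-1.27, adjusted p = 0.0198) and Plac8 (-1.03, adjusted p = 0.0116). Casp1 read 6.01 to 6.19 in control arrays and 4.86 to 5.35 in mutant arrays, and Cxcl10 read 4.27 to 4.92 against 2.83 to 3.78. Genes that rose were Nampt, a nicotinamide salvage enzyme (0.85, adjusted p = 0.0208), Ifi207 (0.43, adjusted p = 0.0487), Ifi27 (0.42, adjusted p = 0.0311) and Ly6e (0.38, adjusted p = 0.0272). Ifi207 was dim in both groups, and Nampt read 5.71 to 5.89 in control arrays and 6.22 to 6.89 in mutant arrays.

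In the nucleic acid sensing pathway, 24 of 29 listed genes were measured and 1 was called (4.17%, against 12.0% of all genes). This was Rnf135, a ubiquitin ligase of the RIG-I pathway (log2 fold change -0.43, limma adjusted p = 0.0197). Of 31 other MHC class I genes, 19 were measured, of which 2 were higher and 1 was lower (15.8% called, against 12.0% of all genes). Cd1d1, which presents lipids to natural killer T cells, read 5.06 to 5.63 in control arrays and 6.01 to 6.29 in mutant arrays (log2 fold change 0.92, adjusted p = 0.0126). The chaperone Calr rose by 0.53 (adjusted p = 0.0399), and Tapbpl, a relative of tapasin, fell by 0.40 (adjusted p = 0.0237). The classical heavy chains H2-K1 and H2-D1 differed by 0.01 and 0.02. Many other class I genes share sequence, and 12 of the 31 were not measured by a probe set with a single symbol.

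Of 18 other MHC class II genes, 16 were measured and 1 was called (6.25%, against 12.0% of all genes). It was Ifi30, a lysosomal thiol reductase that also stands in the interferon-stimulated list, which read 8.27 to 8.39 in control arrays and 7.34 to 7.76 in mutant arrays (log2 fold change -0.80, adjusted p = 0.00651). The class II chains H2-Aa, H2-Ab1 and H2-Eb1 differed by 0.02, 0.08 and 0.11.

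**Figure D4:**
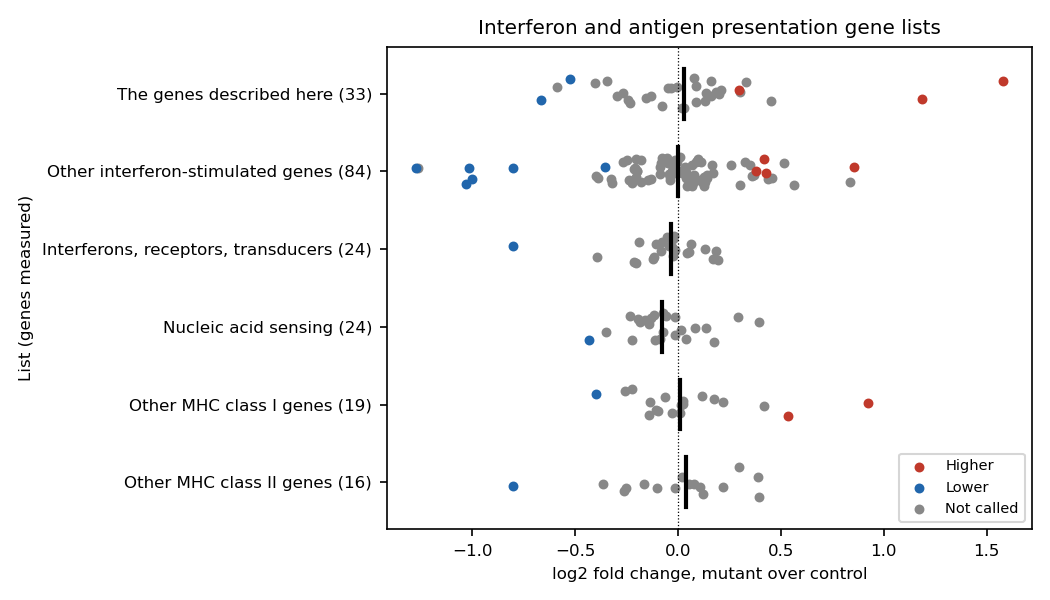
Log2 fold change (mutant over control) of each measured gene in the set and in 5 further lists of interferon and antigen presentation genes. Each point is a gene, coloured by its call, and the vertical mark is the median of the list. All medians lie between -0.08 and 0.04, with Usp18 and Rsad2 as the highest points of the set.

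Some markers of cell types also differed between the groups. Of 24 measured cell cycle markers, 2 were higher and none was lower (8.33% called, against 12.0% of all genes). All 24 differences were above 0. The list mean was 6.31, 4.28 and 6.41 in control arrays 1 to 3 and 6.07 to 6.55 in mutant arrays. Of 19 macrophage markers, 6 were higher and none was lower (31.6% called, against 12.0% of all genes). The mean log2 intensity of the 19 was 5.57 to 5.60 in control arrays and 5.86 to 5.92 in mutant arrays. The 6 higher markers were C1qa, C1qb, C1qc, Lyz2, Aif1 and Fcgr1, with log2 fold changes of 0.39 to 0.56. In both groups 3 of the 19 were below an intensity of 16. Of 8 measured adipocyte markers, 3 were higher (37.5% called, against 12.0% of all genes). All 8 had mutant arrays above control arrays, as did 14.9% of all genes. The list means were 4.11 to 5.62 in control arrays and 6.19 to 6.82 in mutant arrays. Control 3 stood apart as the lowest, at 4.11 against 5.29 and 5.62 in controls 1 and 2. Of 8 markers shared by leukocytes none was called, and their list mean was 5.40 to 5.55 in control arrays and 5.32 to 5.46 in mutant arrays.

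Dendritic cell and natural killer cell markers had 1 lower call each, Itgax and Ncr1, of 11 and 7 measured (9.09% and 14.3%, against 12.0% of all genes). Both of these genes were below an intensity of 16 in both groups, as were 8 of the 11 and 5 of the 7 markers in all. No B cell or T cell marker of 7 and 8 measured was called, and all 7 B cell markers and 7 of 8 T cell markers were below an intensity of 16. Of 10 epithelial markers 1 was higher and 3 were lower. This share called was the largest of the marker lists and above the 12.0% of all genes. The epithelial list means were 8.05 to 8.18 in control arrays and 7.62 to 8.07 in mutant arrays. The part of these cell types in the differences of Usp18, Rsad2, Bst2 or any other gene of the set was not tested.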

How the data were processed

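Total RNA of mouse uterus was hybridised to 6 Affymetrix arrays (3 control, 3 mutant). The authors deposited intensity values per probe set on a linear scale, made with RMA per the labels (software version not given in the sources used). Values were converted to log2 (a floor of 1 changed none). Of 45037 probe sets, 34945 carry 1 gene symbol, 932 several and 9160 none. Where a gene had several probe sets with 1 symbol, the one whose mean was highest across arrays was kept. The test between mutant and control arrays was that of limma 3.58.1 (R 4.3.3, lmFit and eBayes, two-sided), fitted to all 18193 genes with Benjamini-Hochberg adjustment and a threshold of 0.05. The fit was tested on simulated data. The number of arrays limits the precision. Samples were grouped by title. No batch is given in the labels.

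The genes and lists were chosen with earlier results of these data known. Array values are given for called genes, for genes with an absolute log2 fold change over 0.5 and for the 4 with the highest mean intensity, and of each further list at most 4 called genes each way by size of change. Other genes named, such as receptor and MHC chain genes, were chosen after their values were seen. Promoters came from RefSeq (GRCm38.p6). Mx1, Mx2, Oas2, Usp18, Rtp4, Tap2, Ciita and Cd74 had no entry. Alternatives covered centring, quantile normalisation, the choice of probe set, low values, the variance model, a replicate block and leaving out arrays.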

Additional observations from a re-analysis of the deposited data

How the results depend on the processing

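Over 19 alternative settings no gene of the set reversed a call, and 23 of the 33 were called neither in the reported fit nor in any alternative. Usp18, Rsad2 and Bst2 kept their calls in 18 of 19 alternatives. The exception for each was the methods' t-test after Benjamini-Hochberg adjustment, where 1 gene of the set (Irf5) was higher and 0 were lower, with 105 higher and 39 lower over all genes. At an unadjusted p under 0.05 the same test gave 5 higher and 3 lower (Irf9, Bst2 and Gbp3), with 1924 higher and 2224 lower over all genes. Bst2 kept its call under a floor at an intensity of 16 and under a fold above 1.5 with an unadjusted p under 0.05. Gbp3 and Irf5 did not. With the lowest 40% of genes left out, 27 genes of the set were tested and their median log2 fold change was -0.0336. Leaving out each array in turn gave 2 to 3 higher and 1 to 3 lower calls, with medians from -0.0051 to 0.0676. The single lower call was Bst2 in every such fit but the one without mutant 1, which also called Gbp3 and Irf1 (adjusted p = 0.0436). Over all genes the reported fit called 1021 higher and 1157 lower, and counts fell to 481 higher and 370 lower without control 1. Lost calls in the set are therefore not to be read as particular to it. Irf5 kept its call in 6 alternatives, Gbp3 in 10, and Ifit2 gained one in 6. The deviations of arrays with the same replicate number from their group means correlated at r = 0.0107, 0.212 and 0.164. Arrays with different numbers were not compared, so whether same-numbered arrays are linked is not settled. With the replicate block the set had 3 higher calls (Usp18, Rsad2 and Ifit2) and 3 lower calls (Bst2, Gbp3 and Ifih1), and all genes had 966 higher and 1085 lower. The cause of these changes was not tested. With 3 arrays per group, dim genes such as Stat2, Mx1, Mx2, Oas3 and Ciita give little information on small differences.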
